A study of Homo sapiens with 12 samples.

Results

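The phagocyte NADPH oxidase genes described here were the rows of the expression table whose symbol was CYBB, CYBA, NCF1, NCF4, RAC1 or RAC2, and all 6 were found among 20030 gene rows. Transcripts were sequenced in 2 human cell lines, MOLM-13 and THP-1, both acute monocytic leukemia lines with MLL rearrangements and each a single long-established line. MOLM-13 cells also carry an internal tandem duplication of FLT3, which is wild-type in THP-1 cells. Each line had 3 control libraries from cells given the solvent DMSO and 3 libraries from cells given Jiyuan oridonin A (JOA), a kaurene diterpenoid from Isodon rubescens. The JOA dose was 0.5 μM in MOLM-13 and 2 μM in THP-1 cells, so line and dose cannot be told apart. All cells were incubated for 48 h according to the sample records and the methods, although a figure legend of the study gives a longer time. Values are FPKM, that is, fragments scaled to transcript length and to the mapped fragments of the library, so levels can be compared between genes. The records do not say whether replicates were separate cultures, so p-values measure the spread between these libraries, which may be technical.

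The phagocyte NADPH oxidase moves electrons from NADPH across a membrane onto oxygen and so makes superoxide, the first product of the respiratory burst that monocytes, macrophages and neutrophils use against microbes. Its catalytic core sits in the membrane as a flavocytochrome of CYBB (gp91phox, also called NOX2) and CYBA (p22phox). In resting cells the organizer NCF1 (p47phox) and the phosphoinositide-binding NCF4 (p40phox) wait in the cytosol. On stimulation they join the core together with a GTP-loaded RAC GTPase, of which RAC2 is largely restricted to blood cells and RAC1 is found in most tissues. Loss of CYBB, CYBA, NCF1 or NCF4 causes chronic granulomatous disease, and transcription of the genes for the core and the cytosolic subunits is known to increase as myeloid cells mature.

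On the human genome build GRCh38.p14, CYBB lies on chromosome X from 37780059 to 37813461 and CYBA on chromosome 16 from 88643289 to 88651053. NCF1 spans 74774011 to 74789315 on chromosome 7, between its near-identical pseudogenes NCF1B, which starts at 73220639, and NCF1C, which starts at 75156578. How the authors' counting assigned reads shared by these copies is not stated, so NCF1 values are uncertain in that respect. NCF1B and NCF1C had no row under these symbols in the expression table used here, so they could not be analysed. NCF4 (36861006 to 36878015) and RAC2 (37225270 to 37244269) are both on chromosome 22. RAC1 lies on chromosome 7 from 6374527 to 6403967.

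Promoter sequences from RefSeq were matched for 3 of the 6 genes, CYBB, CYBA and NCF1. CYBB and NCF1 are printed because their values differed most between control and JOA libraries, and because their promoters are known targets of PU.1 (encoded by SPI1), an ETS factor of myeloid cells. Each line holds the 250 bases before the gene's start, 5′ to 3′ on the gene's strand (both genes are on the plus strand), at chrX:37779809-37780058 for CYBB and chr7:74773761-74774010 for NCF1. Capitals mark matches to GAGGAA, a core of the kind PU.1 binds, or to the ETS-IRF composite element, which ETS and IRF factors bind together, each searched on both strands.
CYBB: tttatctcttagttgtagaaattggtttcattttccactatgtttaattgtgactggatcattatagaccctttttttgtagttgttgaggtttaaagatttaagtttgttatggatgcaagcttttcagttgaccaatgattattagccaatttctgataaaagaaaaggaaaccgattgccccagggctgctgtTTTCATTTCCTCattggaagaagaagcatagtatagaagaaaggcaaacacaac
NCF1: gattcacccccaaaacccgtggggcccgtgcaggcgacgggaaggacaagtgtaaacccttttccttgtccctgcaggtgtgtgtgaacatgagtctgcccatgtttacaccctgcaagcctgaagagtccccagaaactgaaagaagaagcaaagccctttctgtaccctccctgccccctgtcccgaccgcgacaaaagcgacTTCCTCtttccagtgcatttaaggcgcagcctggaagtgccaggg
In CYBB the composite covered bases -54 to -45 from the start and overlapped a GAGGAA match at -48 to -43. NCF1 had a GAGGAA match at -45 to -40. Both matches were on the strand opposite to the gene. The CYBA promoter window held neither set of letters. Over windows from 250 bases before to 50 after the start, GAGGAA was found in 27.9% of 35116 RefSeq promoters and the composite in 2.82%. These are matches of letters and not measured binding.

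All 6 genes were expressed in all 12 libraries, at levels that spanned more than an order of magnitude. In control MOLM-13 cells the mean was 6.17 ± 1.58 FPKM (SD, n = 3) for CYBB, 25.2 ± 4.38 for NCF1, 25.7 ± 1.31 for NCF4, 78.0 ± 5.24 for RAC1, 84.5 ± 4.46 for CYBA and 151.9 ± 7.32 for RAC2. NCF1 and NCF4 overlapped in range, as did RAC1 and CYBA at their edges (72.1 to 82.0 against 80.1 to 89.0 FPKM), while every CYBB value lay below and every RAC2 value above those of the other genes. In control THP-1 cells the order was CYBB (11.1 ± 1.96 FPKM, SD, n = 3), NCF1 (12.4 ± 4.24), NCF4 (15.0 ± 0.482), CYBA (98.6 ± 8.58), RAC2 (116.3 ± 12.9) and RAC1 (122.7 ± 6.30). There the ranges of CYBB and NCF1, of NCF1 and NCF4, of CYBA and RAC2, and of RAC2 and RAC1 overlapped. CYBB, the catalytic subunit, thus had the lowest mean of the 6 in both lines, and its partner CYBA was above 97.3% of all gene rows in control MOLM-13 cells and above 97.7% in control THP-1 cells.

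**Figure D1:**
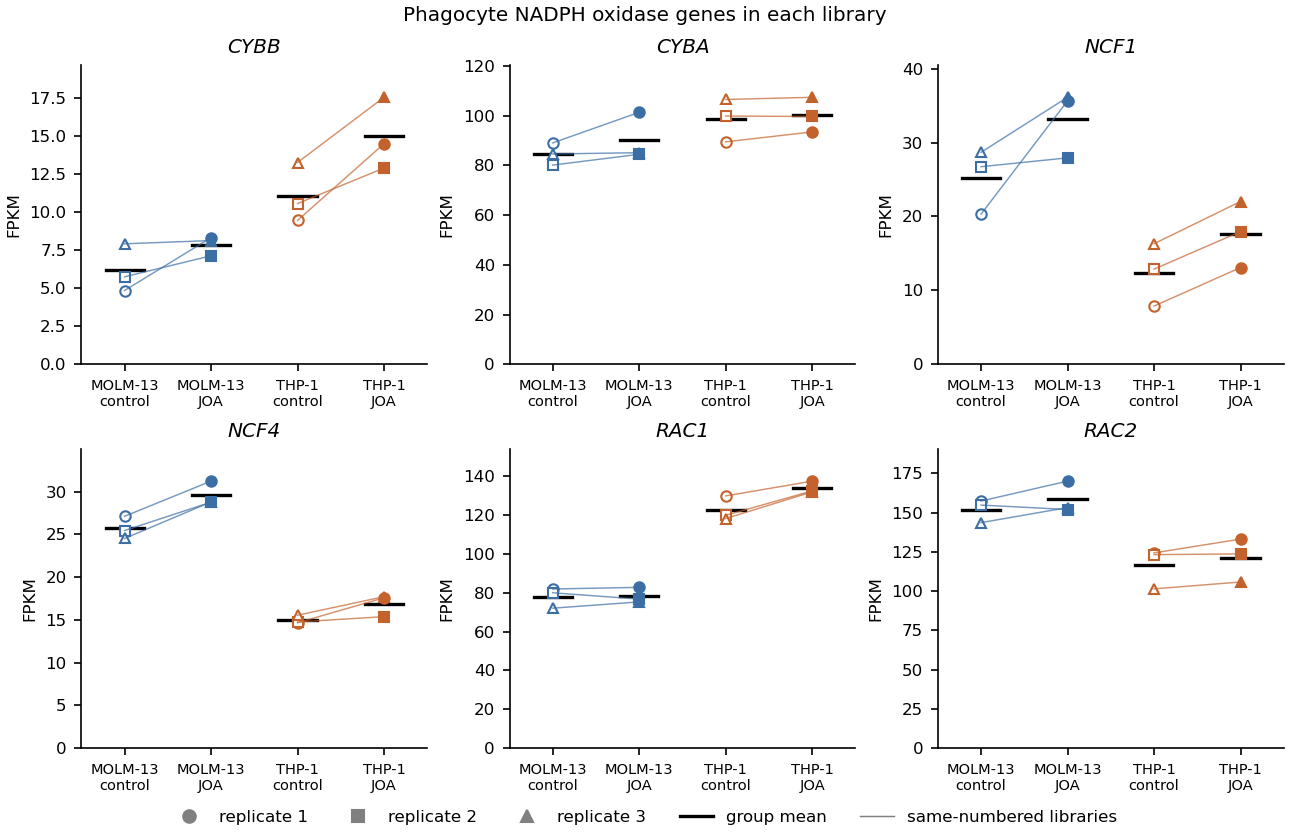
FPKM (linear axis from 0) of the 6 oxidase genes in each of the 12 libraries. Open symbols are control and filled symbols JOA libraries, symbol shape gives the replicate number, thin lines join same-numbered libraries and black bars are group means. CYBB, NCF1 and NCF4 lie higher with JOA in each same-numbered pair of both lines. By group mean CYBA, RAC1 and RAC2 stay nearer their control level, although the RAC1 groups do not overlap in THP-1 cells. The control ranges of the lines do not overlap in any of the 6 genes.

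The untreated lines differed in the transcript levels of the oxidase genes. CYBB and RAC1 were higher in THP-1 than in MOLM-13 control cells, while NCF1 and NCF4, the cytosolic subunits, were lower. These 4 of 6 genes passed both thresholds, an adjusted p below 0.05 and a log2 difference of 0.58 or more in size, where 44% of the 12635 genes tested passed, so such differences between the lines were common. The 2 higher members stand against 25% of all genes called higher and the 2 lower members against 19% called lower. All 6 passed on the adjusted p alone, as did 71.2% of all genes. Genes were tested by limma on log2(FPKM + 0.1) with Benjamini-Hochberg adjustment over all genes. In all 6 genes the THP-1 control values lay entirely above or below those of MOLM-13, as in 74.8% of all genes tested.

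CYBB was at 4.85, 5.75 and 7.92 FPKM in the MOLM-13 control libraries (replicates 1, 2 and 3) and at 9.45, 10.6 and 13.3 FPKM in those of THP-1. The groups did not overlap, and the log2 difference was 0.85 (standard error, SE, 0.19, adjusted p = 0.00347). For CYBA the log2 difference was 0.22 (SE 0.08, adjusted p = 0.0331), below the fold threshold. NCF1 was at 20.3, 26.7 and 28.7 FPKM in MOLM-13 and at 7.88, 12.9 and 16.3 FPKM in THP-1 control libraries, a log2 difference of -1.07 (SE 0.25, adjusted p = 0.00460). NCF4 ran from 24.5 to 27.1 FPKM in MOLM-13 and from 14.7 to 15.5 FPKM in THP-1 control libraries (log2 difference -0.77, SE 0.06, adjusted p = 1.10e-05). The spread was wider in NCF1 than in NCF4. Within the THP-1 controls the coefficient of variation was 34.3% for NCF1, above that of 98.9% of the 10083 genes with a mean of at least 1 FPKM, and 3.22% for NCF4, above that of 19.6%.

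The 2 RAC GTPases differed in opposite directions between the lines. RAC1 was at 82.0, 80.0 and 72.1 FPKM in MOLM-13 and at 129.9, 119.9 and 118.3 FPKM in THP-1 control libraries, with no overlap (log2 difference 0.65, SE 0.07, adjusted p = 5.90e-05). RAC2 was at 157.4, 154.8 and 143.6 FPKM in MOLM-13 and at 124.3, 123.2 and 101.4 FPKM in THP-1 control libraries. Its log2 difference of -0.39 (SE 0.09, adjusted p = 0.00435) was below the fold threshold. Within a library, the ratio of RAC2 to RAC1 was 1.95 ± 0.0383 in the MOLM-13 controls (SD, n = 3) and 0.947 ± 0.0853 in those of THP-1. The ranges of 1.92 to 1.99 and 0.858 to 1.03 did not overlap, and the exact two-sided permutation test gave p = 0.1, the smallest that 3 against 3 libraries allow. RAC2 was therefore the more abundant RAC transcript in every MOLM-13 control library, while in THP-1 both were near the same level.

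In THP-1 cells, JOA was accompanied by higher CYBB and NCF1 in each same-numbered pair of libraries, with smaller differences in NCF4 and RAC1 and little in CYBA and RAC2. At both thresholds 0 of the 6 genes were called by limma, where 0.134% of 12712 genes were, and 3 of 6 (CYBB, NCF4 and RAC1) had an unadjusted p under 0.05, against 16.9% of all genes. Same-numbered control and JOA libraries deviated together from their group means, so the fit with the replicate number as a block is given beside the first. With the block 0 of 6 were called at both thresholds, where 1.27% of all genes were. On the adjusted p alone 2 of 6 (CYBB and NCF1) passed under the block, as did 8.06% of all genes, both with a fold below the threshold. Under the block 4 of 6 had an unadjusted p below 0.05, against 26% of all genes. All 6 log2 fold changes were above 0, as were 56.7% of those of all genes, and 5 of 6, all but CYBA, were higher in each same-numbered pair, as were 29.3% of all genes. In such bulk libraries, fewer cells of a type and less RNA per cell cannot be told apart.

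NCF1, the organizer that carries the cytosolic subunits to the membrane, was at 7.88, 12.9 and 16.3 FPKM in control and 13.1, 18.0 and 22.03 FPKM in JOA libraries. The groups overlapped, but in the same order of replicates, and each JOA library exceeded its same-numbered control by 66.1%, 39.4% and 35.0%. Its log2 fold change was 0.54. Without the block the SE was 0.27 and the adjusted p 0.362, and with it they were 0.07 and 0.00838. Without the block, the log2 fold change of NCF1 was 0.25 when control replicate 1 was left out. Under the block it was 0.45 to 0.60 when 1 pair was left out in turn, with an adjusted p from 0.00278 to 0.00607, and it passed both thresholds without the pair numbered 3.

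CYBB was at 9.45, 10.6 and 13.3 FPKM in control and 14.5, 12.9 and 17.5 FPKM in JOA libraries of THP-1. Its JOA values were above the same-numbered controls by 53.3%, 22.2% and 32.3%, although the lowest JOA value was below the highest control value. The log2 fold change of 0.43 (95% interval 0.10 to 0.77) had an adjusted p of 0.193 without the block and 0.0168 with it, where the interval was 0.28 to 0.59. For its partner CYBA the control values were 89.4, 99.8 and 106.5 FPKM and the JOA values 93.4, 99.6 and 107.3 FPKM. Here the pairs differed by less than 5%, and the log2 fold change of 0.02 had an interval of -0.16 to 0.20, which leaves out the fold threshold in either direction (adjusted p = 0.910, and 0.740 with the block). The ratio of CYBB to CYBA within a library went from 0.112 ± 0.0108 in control to 0.149 ± 0.0177 (SD, n = 3) in JOA libraries. These ranges did not overlap (0.106 to 0.125 against 0.130 to 0.164), with p = 0.1 by the exact two-sided permutation test, the smallest it can give.

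NCF4 went from 14.7, 14.7 and 15.5 to 17.6, 15.4 and 17.7 FPKM in THP-1 cells, a log2 fold change of 0.17 (SE 0.07, adjusted p = 0.259, and 0.0974 with the block). RAC1 was the 1 of the 6 genes with no overlap between the groups, at 129.9, 119.9 and 118.3 FPKM in control and 137.5, 132.5 and 132.0 FPKM in JOA libraries, and 23.4% of all genes showed no overlap. The difference was small, 0.13 on the log2 scale (SE 0.05, adjusted p = 0.270, and 0.0896 with the block). RAC2 was at 124.3, 123.2 and 101.4 FPKM in control and 133.1, 123.7 and 105.8 FPKM in JOA libraries, with a log2 fold change of 0.05 and an interval of -0.19 to 0.30. The signs of the CYBA and RAC2 differences depended on single libraries.

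In MOLM-13 cells the values for NCF1, CYBB, NCF4 and CYBA were higher with JOA in each same-numbered pair, and no gene passed the test. These 4 of 6 stand against 18.5% of all genes. At both thresholds 0 of 6 were called by limma with or without the block, as were 0% of the 11693 genes tested, so no gene at all was called in this comparison. The paper, with DESeq, a test that takes counts, reported genes called in MOLM-13 cells at these thresholds. The 0 calls here therefore do not show that these cells did not respond. An unadjusted p under 0.05 was found for 3 of 6 (CYBB, NCF1 and NCF4), against 4.11% of all genes, and under the block for the same 3, against 11.1%. All 6 log2 fold changes were above 0, as were 52.4% of those of all genes.

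CYBB was at 4.85, 5.75 and 7.92 FPKM in control and 8.32, 7.13 and 8.13 FPKM in JOA libraries of MOLM-13, higher by 71.6%, 24.0% and 2.69% in the pairs numbered 1, 2 and 3. The JOA libraries lay close together while the controls were spread out, with coefficients of variation of 8.14% and 25.6%. The log2 fold change was 0.37 (SE 0.16, adjusted p = 1.00, and 0.385 with the block). NCF1 was at 20.3, 26.7 and 28.7 FPKM in control and 35.6, 27.9 and 36.1 FPKM in JOA libraries, a log2 fold change of 0.40 (SE 0.14, adjusted p = 1.00, and 0.356 with the block). Control replicate 1 had the lowest CYBB and the lowest NCF1 value of its group. Without it the log2 fold changes were 0.21 for CYBB and 0.25 for NCF1, and without the whole pair numbered 1, under the block, they were 0.17 and 0.20.

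NCF4 was the 1 of the 6 genes whose MOLM-13 groups did not overlap, as held for 9.65% of all genes. Its control values of 27.1, 25.4 and 24.5 FPKM were followed by 31.2, 28.8 and 28.8 FPKM with JOA, so that the pairs differed by 15.2%, 13.1% and 17.4%. This even difference gave a log2 fold change of 0.20 with a standard error of 0.07 (adjusted p = 1.00, and 0.305 with the block). CYBA went from 89.0, 80.1 and 84.5 to 101.3, 84.4 and 85.1 FPKM, a log2 fold change of 0.09 (interval -0.10 to 0.28). For RAC1 the log2 fold change was 0.01 (interval -0.16 to 0.17) and for RAC2 it was 0.06 (interval -0.10 to 0.22), and these intervals leave out the fold threshold of 0.58. The RAC1 values were 72.1 to 82.0 FPKM in control and 75.3 to 82.8 FPKM in JOA libraries, and those of RAC2 143.6 to 157.4 and 152.0 to 170.1 FPKM.

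**Figure D2:**
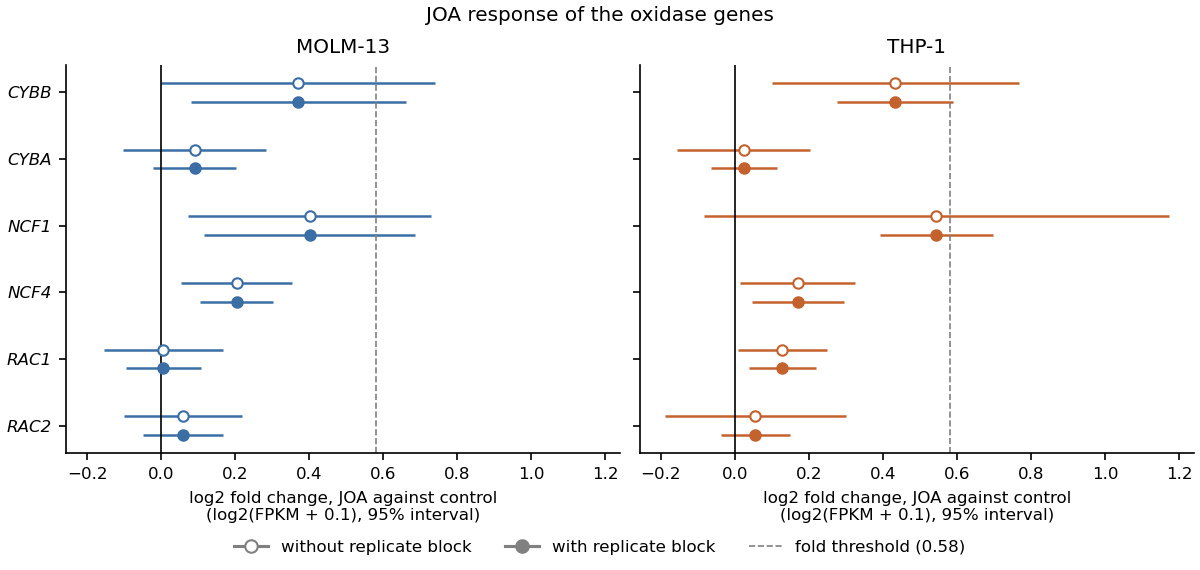
Log2 fold change of JOA against control (horizontal axis, log2(FPKM + 0.1) scale) with its 95% interval from limma for each oxidase gene in both lines. Open circles are the fit without and filled circles the fit with the replicate block, and the dashed line is the fold threshold of 0.58. All 6 estimates lie above 0 and below 0.58 in both lines, and NCF1 in THP-1 cells has the interval that narrows most under the block.

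The ratio of RAC2 to RAC1 differed more between the lines than between conditions. For CYBB to CYBA the log2 difference was 0.64 between the control lines, 0.41 with JOA in THP-1 and 0.29 with JOA in MOLM-13 cells. Leaving out 1 library gave overlapping ranges of 0.45 to 0.84 between the control lines and 0.34 to 0.51 with JOA in THP-1 cells. With JOA the ratio of RAC2 to RAC1 was 2.02 ± 0.0381 (SD, n = 3) in MOLM-13 and 0.901 ± 0.0879 in THP-1 cells. Its log2 difference from control was 0.05 in MOLM-13 cells (p = 0.2, exact two-sided permutation test) and -0.07 in THP-1 cells (p = 0.6, same test). In MOLM-13 cells the ratio of CYBB to CYBA was 0.0733 ± 0.0196 in control and 0.0874 ± 0.00721 in JOA libraries (SD, n = 3), and these ranges overlapped (exact permutation test, p = 0.3). CYBA made up 58.03% to 63.0% of the summed FPKM of CYBB, CYBA, NCF1 and NCF4 in the MOLM-13 control libraries and 53.8% to 57.4% in the JOA libraries. In THP-1 cells these shares were 70.2% to 73.7% and 65.2% to 68.3%. The share of CYBA was lower with JOA in every same-numbered pair of both lines.

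**Figure D3:**
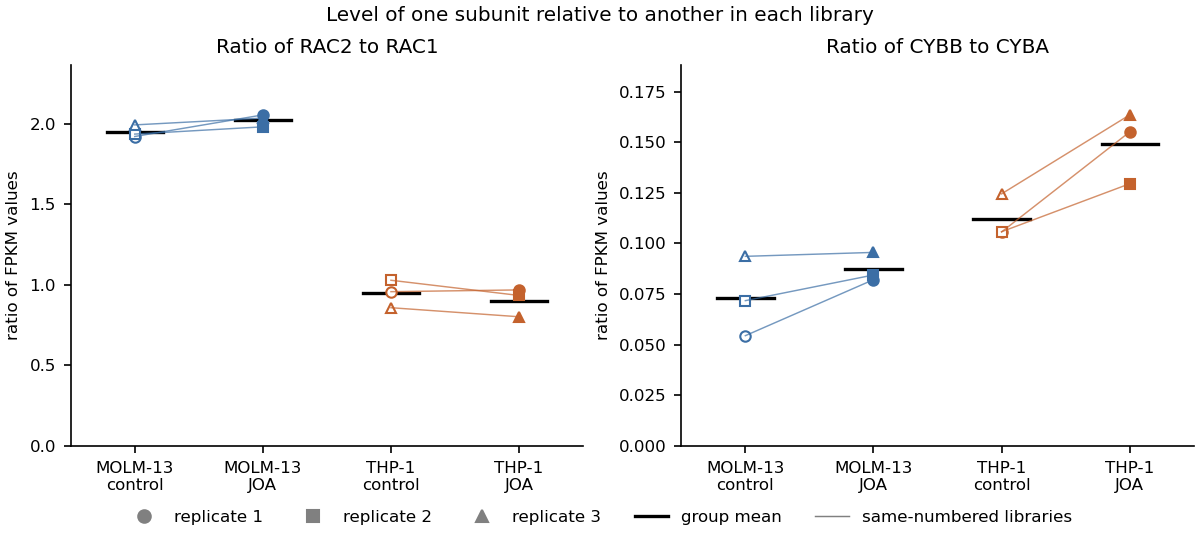
Ratio of FPKM values (linear axes from 0) of RAC2 to RAC1 (left) and of CYBB to CYBA (right) in each library. Open symbols are control and filled symbols JOA libraries, shape gives the replicate number, thin lines join same-numbered libraries and black bars are group means. The RAC ratio lies near 2 in MOLM-13 and near 0.9 in THP-1 cells, and the ratio of CYBB to CYBA in THP-1 cells lies higher with JOA in all 3 pairs.

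A line-by-treatment term fitted to all 12 libraries asked whether the lines responded differently to JOA. No oxidase gene passed an adjusted p of 0.05 by limma, with or without the block, where 0% and 0.0475% of 12626 genes did, and 0 of the 6 had an unadjusted p under 0.05 in either fit, against 7.24% of all genes without and 14.9% with the block. The difference in log2 fold change, THP-1 minus MOLM-13, was 0.14 for NCF1 (interval -0.62 to 0.90) and 0.06 for CYBB (interval -0.47 to 0.59). For NCF4 it was -0.03 with an interval of -0.24 to 0.17. For RAC1 it was 0.12, with an interval of -0.07 to 0.31 without the block and -0.000445 to 0.24 with it. The RAC1 term stayed above 0 under each alternative (0.0854 to 0.178). Differences between the lines as large as the responses themselves are within the intervals of NCF1 and CYBB, so these data do not show that the lines respond alike.

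The wider oxidase pathway was described from lists of genes that act before, beside or after the enzyme. Of the 10 homologues of the oxidase and their partners, such as NOX4 and DUOX1, 8 stayed below 0.1 FPKM in every library and 4 were at 0 in all of them. The highest was NOXA1, an activator subunit of another NADPH oxidase, at 0.211 FPKM in control MOLM-13 and 0.0982 in control THP-1 cells. DUOX1 in THP-1 (0.0597 FPKM) and NOX5 in MOLM-13 cells (0.0983 FPKM) followed. CYBB was thus the one catalytic NOX or DUOX subunit among those examined with a mean of at least 1 FPKM in either line.

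CYBC1, a chaperone needed to make the flavocytochrome, was at 22.8 FPKM in control MOLM-13 and 34.0 FPKM in control THP-1 cells. With JOA its log2 fold change was 0.13 in MOLM-13 and 0.09 in THP-1 cells, and neither passed the test (adjusted p = 1.00 and 0.555). HVCN1 is the proton channel that balances the charge the oxidase moves. Its level was 16.0 FPKM in control MOLM-13 and 3.94 FPKM in control THP-1 cells, a log2 difference of -1.997 between the lines (adjusted p = 2.15e-07). With JOA its log2 fold change was 0.09 in MOLM-13 and 0.18 in THP-1 cells (adjusted p = 1.00 and 0.383).

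Among 20 regulators of RAC and kinases that activate the oxidase, 0 were called with JOA in either line, with or without the block. Of all genes, 0.134% were called in THP-1 (1.27% with the block) and 0% in MOLM-13 cells. The medians of the log2 fold changes in this list were 0.06 over 19 genes tested in THP-1 and 0.04 over 20 in MOLM-13 cells. Over all genes tested these medians were 0.02 and 0.01. ARHGDIB and ARHGDIA, which hold RAC proteins inactive in the cytosol, were the most abundant, at 417.4 and 137.5 FPKM in control THP-1 and 285.5 and 87.8 FPKM in control MOLM-13 cells. The largest differences with JOA were in PRKCA (log2 fold change 0.25, adjusted p = 0.148), which encodes a protein kinase C, and the RAC-activating scaffold ELMO1 (0.19, adjusted p = 0.383) in THP-1 cells. In MOLM-13 cells they were in PIK3R5 (0.19) and in VAV1, an exchange factor that loads RAC with GTP (0.18), both at an adjusted p of 1.00. Between the untreated lines 5 of 19 were called higher in THP-1, where 25% of all genes were, among them PRKCA (log2 difference 1.76), and 2 lower, where 19% were, among them PIK3R5 (-1.82), which encodes a regulatory subunit of phosphoinositide 3-kinase.

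Of 11 other small GTPases related to RAC1 and RAC2, 10 were tested in each line and 0 were called with JOA. The shares of all genes called were 0.134% in THP-1 (1.27% with the block) and 0% in MOLM-13 cells. RAC3, the closest relative of RAC1 and RAC2 in this list, had a lower value with JOA in THP-1 cells. It went from 26.9, 26.3 and 25.3 to 18.6, 19.2 and 21.7 FPKM without overlap, as in 23.4% of all genes. Its log2 fold change of -0.40 was below the fold threshold, with an adjusted p of 0.0585 without the block and 0.0177 with it. In MOLM-13 cells RAC3 was at 8.13 to 12.8 FPKM in control and 8.76 to 10.3 FPKM in JOA libraries. RHOF followed in THP-1 cells (log2 fold change -0.26, adjusted p = 0.169), and RHOB (-0.09) and RHOU (0.06) had the largest differences in MOLM-13 cells among genes with a mean of at least 1 FPKM. RHOA and CDC42 were the most abundant, at 284.1 and 88.5 FPKM in control THP-1 and 170.1 and 90.2 FPKM in control MOLM-13 cells.

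The 9 transcription factors known to act on oxidase genes gave 0 calls with JOA in either line by limma, with or without the block. Among all genes, 0.134% were called in THP-1 (1.27% with the block) and 0% in MOLM-13 cells, so 0 calls were to be anticipated. In THP-1 cells 4 of 9 log2 fold changes were above 0. The list median was -0.03 in THP-1 and 0.03 in MOLM-13 cells, against 0.02 and 0.01 over all genes. CEBPA and IRF8 were the most abundant, at 207.7 and 163.4 FPKM in control THP-1 and 180.7 and 169.6 FPKM in control MOLM-13 cells. CEBPB (log2 fold change 0.29, adjusted p = 0.216) and CEBPE (0.23, adjusted p = 0.400), factors of myeloid maturation, had the largest differences in THP-1 cells. With the block the adjusted p of CEBPB was 0.0354, at a fold below the threshold. In MOLM-13 cells HOXA10 (-0.13) and IRF1 (0.11) differed most, at an adjusted p of 1.00. SPI1, named here for the promoter matches and after its values were seen, was at 39.6, 38.3 and 42.0 FPKM in control and 42.7, 42.0 and 49.8 FPKM in JOA libraries of THP-1. These groups did not overlap, as in 23.4% of all genes, with a log2 fold change of 0.16 (adjusted p = 0.315, and 0.0631 with the block). In MOLM-13 cells SPI1 ranged from 50.7 to 60.8 FPKM in control and from 54.5 to 63.3 FPKM in JOA libraries. Between the untreated lines SPI1 was lower in THP-1 cells (log2 difference -0.47, adjusted p = 0.000711 by limma), below the fold threshold. There CYBB was higher and NCF1 lower. A link between the SPI1 level and either gene was not tested.

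The oxidase consumes NADPH, which PGD, ME1 and IDH1 are among the enzymes to supply. None of these 3 was called at both thresholds in either line. Calls were rare among all genes too, at 0.134% in THP-1 (1.27% with the block) and 0% in MOLM-13 cells. PGD, of the pentose phosphate pathway, was at 156.1, 152.1 and 164.3 FPKM in control and 239.1, 204.7 and 224.3 FPKM in JOA libraries of THP-1. Its log2 fold change of 0.50 had an adjusted p of 0.0394, and 0.00659 with the block, at a fold below the threshold. ME1, the cytosolic malic enzyme, had a log2 fold change of 0.52 (adjusted p = 0.0914, and 0.00804 with the block). The JOA values of PGD and ME1 did not overlap the controls in THP-1 cells, as in 23.4% of all genes. IDH1 had a log2 fold change of 0.10 there. In MOLM-13 cells the log2 fold changes were 0.26 for ME1, 0.22 for PGD and 0.16 for IDH1, at an adjusted p of 1.00.

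Of 13 enzymes that use or remove superoxide and peroxide, 0 were called with JOA without the block in either line. That fit called 0.134% of all genes in THP-1 and 0% in MOLM-13 cells. With the block 1 of 13, MPO, was called lower in THP-1 cells, where 1.27% of all genes were called in either direction. MPO, the myeloperoxidase that turns hydrogen peroxide into hypochlorous acid, was at 28.3, 19.1 and 13.2 FPKM in control and 18.5, 13.2 and 7.68 FPKM in JOA libraries of THP-1. Each JOA value lay below its same-numbered control while the groups overlapped, as NCF1 did in the other direction. The MPO log2 fold change was -0.64 (adjusted p = 0.399, and 0.00659 with the block). In MOLM-13 cells it was -0.14, where GPX1 (0.13) was next in size. GPX3 in THP-1 cells had a log2 fold change of -0.30 (adjusted p = 0.466). The most abundant members of this list were GPX1, a glutathione peroxidase (527.7 FPKM in control THP-1 and 428.6 FPKM in control MOLM-13 cells), and the mitochondrial peroxiredoxin PRDX3 (260.1 and 267.1 FPKM). The median log2 fold change over the list was -0.01 in THP-1 and 0.05 in MOLM-13 cells.

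**Figure D4:**
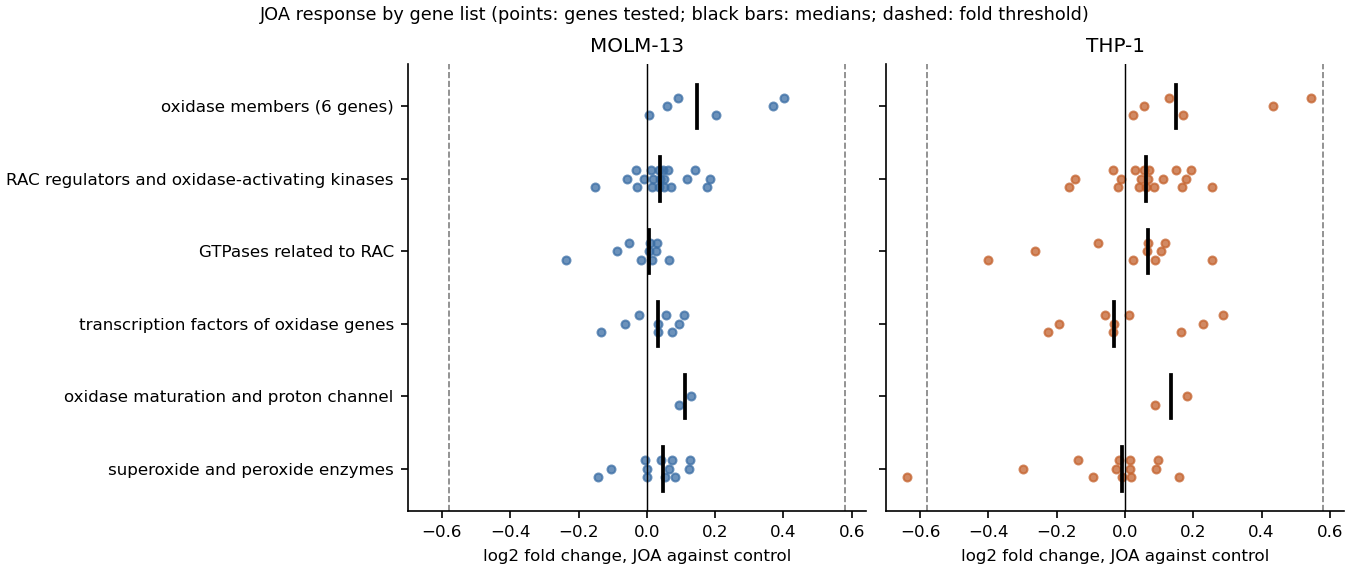
Log2 fold change of JOA against control (horizontal axes) for each gene tested in the oxidase list and 5 related lists, in MOLM-13 (left) and THP-1 cells (right). Points are genes, black bars list medians and dashed lines the fold thresholds of -0.58 and 0.58. The median of the 6 oxidase genes is 0.15 in both lines, CYBB and NCF1 are the 2 rightmost of them, and MPO in THP-1 cells is the 1 point beyond a threshold.

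Over the 12 libraries, the genes most like each oxidase subunit were sought by the root mean square difference between log2(FPKM + 0.1) profiles, each centred on its own mean, among 10066 other genes with a mean of at least 1 FPKM. Nearest to CYBB were CPD (0.15), PTPRJ (0.19) and IFI35 (0.19). The median over all genes was 0.57, given for scale only, since the nearest genes lie below it by choice. The measure takes in differences between the lines as well as those with JOA. CPD, carboxypeptidase D, had group means of 25.4 and 29.4 FPKM in control and JOA MOLM-13 cells and 44.1 and 57.3 FPKM in those of THP-1. Nearest to NCF1 were IFI30 (0.19), a lysosomal thiol reductase, ALOX5AP (0.20), the 5-lipoxygenase activating protein, and ASAH1 (0.23), acid ceramidase. ALOX5AP had group means of 82.0 and 89.4 FPKM in MOLM-13 and 30.4 and 44.6 FPKM in THP-1 cells. The profile of NCF4 was closest to those of CTNNBIP1, HDHD5 and ALG1 (0.07 to 0.08), and that of CYBA to C6orf47, LRPAP1 and MLXIP (0.05 to 0.06). The subunits were not each other's nearest genes. NCF4 ranked 191 of 10066 in likeness to NCF1, and CYBA ranked 2768 in likeness to CYBB. In the other direction, NCF1 ranked 3310 in likeness to NCF4 and CYBB ranked 7154 in likeness to CYBA. RAC1 was nearer to CYBB than CYBA was, at rank 573, while NCF1 was at rank 8588.

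Myelomonocytic markers were present in all groups, with a mean of at least 1 FPKM for 10 of 12 genes in MOLM-13 and 11 of 12 in THP-1 cells. CD14 was below 1 FPKM in both lines, as was ANPEP in MOLM-13 cells. Their summed level, led by lysozyme (LYZ), was 2131 to 3372 FPKM in control and 2679 to 3625 FPKM in JOA libraries of MOLM-13, and 1147 to 1780 and 1256 to 1541 FPKM in those of THP-1. Of 20 marker genes for T, B, erythroid, megakaryocytic and non-haematopoietic cells, 2 (CD3D in MOLM-13 cells and KRT8) had a group mean of at least 1 FPKM, and PPBP, PF4, HBB and HBG1 were at 0 in all libraries. Within a line, log2 values of library pairs correlated across genes at 0.987 to 0.996.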

How the data were processed

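Gene expression had been measured by mRNA-seq (stranded TruSeq libraries, 150 bp paired-end reads) in 12 libraries, 3 for each group. The table the authors deposited holds FPKM for each gene in each library, and no scaling between libraries is stated. The submitters' processing notes name Trimmomatic, HISAT2, Cufflinks, HTSeq and the build hg38, without versions. The gene annotation and strand setting are not given in the sources used here. FPKM holds no counts, so total depth is unknown and no counting interval is given. From the most common ratio between values below 0.1 FPKM, relative depth within a line was estimated at 0.866 to 1.06 of control replicate 1, and moved by up to 3.80% with the window used.

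Genes with a mean of at least 0.1 FPKM in the libraries fitted were tested by limma 3.58.1 (R 4.3.3, eBayes with trend) on log2(FPKM + 0.1), which understates changes of low genes. A gene was called when its p, adjusted by Benjamini-Hochberg over all genes, was below 0.05 and its log2 fold change was 0.58 or more in size, as in the study. The interaction was called on the adjusted p alone. The authors ran DESeq, which takes counts and was not used here. Single values were compared by exact permutation tests over libraries (scipy 1.17.1, Python 3.11.15). Replicate numbers come from the sample titles. Deviations from group means correlated at 0.297 to 0.541 (THP-1) and 0.407 to 0.580 (MOLM-13) for same-numbered control and JOA libraries and at most 0.0676 for others, so the blocked fit is given too. Between control libraries of the 2 lines this correlation was 0.0757 to 0.181, and the numbers were not taken to pair them.

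The 6 genes and all lists were chosen with earlier results of these data known. From each list the text names genes called with JOA, the 2 with the largest change in each line with a mean of at least 1 FPKM, and the 2 highest in control cells. Another cytosolic subunit and some genes of the lists are not reported here. No protein sequences were used. The fits without the block were tested on simulated data with log2 changes of 1 and 2 in size and independent noise in each library. These changes are larger than any JOA difference of the oxidase genes, so recovery of differences that small was not tested. Alternatives covered the pseudocount, filter, scaling, trend, block, fit on all libraries, threshold, and leaving out each library. Leaving out same-numbered pairs and calling on the adjusted p alone were added after the data were seen.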

Additional observations from a re-analysis of the deposited data

How the results depend on the processing

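The counts of called oxidase genes were 0 with JOA in THP-1, 0 in MOLM-13, 4 between the untreated lines and 0 for the interaction. They were the same under each pseudocount, filter, scaling, trend, all-library fit and left-out library, and with the replicate block. An unadjusted p below 0.05 also left the counts the same. For JOA within a line that setting kept the fold threshold, which no oxidase gene reached in the main fit. Its counts of 0 there were fixed in advance and say nothing about the p-values. Called on the adjusted p alone with the block, the THP-1 count was 2. Under these alternatives and without any same-numbered pair, the log2 fold change with JOA stayed above 0 for CYBB (0.31 to 0.57 in THP-1, 0.17 to 0.56 in MOLM-13), NCF1 (0.25 to 0.77 and 0.20 to 0.57) and NCF4 (0.12 to 0.23 and 0.16 to 0.24). Leaving out 1 library moved CYBA in THP-1 cells from -0.0443 to 0.0814, RAC2 in THP-1 cells from -0.0407 to 0.148 and RAC1 in MOLM-13 cells from -0.0500 to 0.0427. RAC1 in MOLM-13 cells was at -0.00571 as TPM and -0.0228 with the block and without the pair numbered 3. The log2 ratio of RAC2 to RAC1 with JOA ranged from -0.143 to 0.00892 in THP-1 cells without 1 library, and was positive without JOA replicate 3. For the interaction, leaving out 1 library gave -0.129 to 0.219 for CYBB, -0.135 to 0.0192 for CYBA, -0.147 to 0.373 for NCF1, -0.0737 to 0.0314 for NCF4 and -0.100 to 0.0881 for RAC2. As TPM the interaction was 0.00188 for NCF4 and 0.0315 for RAC2, and after quantile normalization 0.0233 for RAC2. The cause of these sign changes was not tested. With the replicate block, 4 oxidase genes were called between the untreated lines, as without it. TPM moved the median log2 difference of all genes between the lines to 0.17, from 0.06. Quantile normalization turned the split of calls between the lines from 3157 higher and 2402 lower to 2620 and 3137, and that with JOA in THP-1 cells from 7 and 10 to 3 and 11. With JOA in THP-1 cells, 17 genes in all were called without and 161 with the block, 8 with a pseudocount of 1, 1 without a trend and 0 without a filter. Total depth is unknown, so its limits could not be set.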
